A study of Mus musculus with 16 samples.

Results

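The 8 libraries labelled Ednrb -/- in a mouse study of Hirschsprung disease (HSCR) did not all hold the same amount of neuronal RNA, and the 3 with abundant neuronal transcripts are compared here with the 5 that had few. The members were chosen by a measured value: a library was neuron-containing if Uchl1, a ubiquitin hydrolase that enteric neurons carry in large amounts, reached 100 CPM (counts scaled to a common library total), and neuron-poor if it did not. HSCR proximal 3, HSCR proximal 4 and the library labelled HSCR distal 1 met the limit, and HSCR proximal 1, HSCR proximal 2 and HSCR distal 2, 3 and 4 did not, so the split ran across both segment labels. By library total, Uchl1 reached at most 41.5 CPM in the neuron-poor set (HSCR proximal 2) and at least 178 CPM in the neuron-containing set (HSCR proximal 4), and no library lay near the limit. Uchl1 therefore defines the sets and is no evidence about them.

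The study sequenced polyadenylated RNA from the longitudinal muscle and myenteric plexus (LMMP) peeled from the proximal and the distal colon. The 16 libraries comprise 4 each of WT proximal, WT distal, HSCR proximal and HSCR distal colon. HSCR mice were homozygous for the Ednrb tm1Ywa null allele, which removes the endothelin receptor B from every cell, and WT mice were Ednrb +/+ on the same hybrid C57BL6/J-129Sv background. Per the methods, mice of both sexes were taken at 2 to 4 weeks of age. In HSCR mice, a distended bowel and Tuj1 staining, which marks a tubulin of neurons, set where proximal tissue was taken. The tissue was microdissected and held muscle, interstitial cells, fibroblasts, vessels and glia beside neurons. The labels do not say which libraries came from 1 mouse.

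Enteric neurons and glia descend from neural crest cells that enter the foregut and move down the bowel. Endothelin 3 acting on EDNRB keeps these cells dividing and migrating, and without it they stop before the end of the colon. The bowel ahead of the aganglionic stretch keeps a plexus, which passes through a sparse transition zone, while thick extrinsic nerve bundles with Schwann cells enter the aganglionic distal bowel from the pelvis. Myenteric motor neurons are commonly divided into excitatory ones that use acetylcholine and tachykinins and inhibitory ones that use nitric oxide, VIP and related peptides.

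The targeted gene, counted over its whole length, did not separate the 8 HSCR libraries from the WT libraries. All expression levels from here on are CPM scaled by TMM over the 16 libraries. Ednrb (chromosome 14, 104052061-104081838, mm39, minus strand) was at 37.4 CPM in HSCR proximal 3, 35.3 in HSCR proximal 4 and 94.7 in the library labelled HSCR distal 1. It was at 7.84 CPM in HSCR proximal 1, 11.9 in HSCR proximal 2, and 5.43, 6.10 and 9.48 in HSCR distal 2, 3 and 4. The 8 WT libraries ran from 11.8 to 67.1 CPM with a median of 38.4. The library labelled HSCR distal 1 thus lay above every WT library, and the 5 neuron-poor libraries lay near or below the lowest WT library. The fitted log2 difference between the sets was 2.82 ± 0.43 (SE), and 2.2 without HSCR distal 1. Counts over the whole gene cannot tell transcripts of an intact allele from transcripts of an allele that lacks an exon.

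The posterior gene Hoxd13 went against 2 segment labels. Hoxd13, a homeobox gene of the hindmost body, ran from 0.861 to 23.9 CPM in the WT proximal libraries and from 117 to 215 CPM in the WT distal ones. The library labelled HSCR distal 1 had 0.615 CPM, below every WT library, and the library labelled HSCR proximal 1 had 125 CPM, inside the WT distal range. By Hoxd13 all 3 neuron-containing libraries therefore lay at the low end of the WT proximal range or under it, and the comparisons among libraries labelled distal rest on the label of HSCR distal 1. Whether the labels of HSCR distal 1 and HSCR proximal 1 were exchanged was not tested. Results are therefore given with all 8 libraries, without HSCR distal 1, and without both libraries numbered 1.

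Counted reads ranged from 22939717 to 45831881 per HSCR library. Mitochondrial genes took 5.56% to 10% of them in the neuron-poor and 6.34% to 20.1% in the neuron-containing set. In WT libraries these genes took 4.32% to 49.8%. The highest WT shares were in WT proximal 1 (49.8%), WT proximal 4 (34.6%) and WT distal 1 (23.7%). The part of this spread in the WT levels and slopes below was not tested. Replicates 1 and 2 carry library names of one form, here called the first series. Replicates 3 and 4, here called the second series, carry names that begin with LC or CM. WT proximal 3 and 4 and HSCR proximal 4 have CM names, and the other libraries of the second series LC names. The neuron-poor set held no CM library. The labels do not say what these forms stand for. The neuron-containing set had 1 library of the first and 2 of the second, and the neuron-poor set 3 and 2. The neuron-poor libraries were also uneven in other tissues. The 23 epithelial genes averaged 9.12 on the log2(CPM + 0.5) scale in HSCR proximal 2 and from 2.19 to 7.40 in the other neuron-poor libraries, and 17 smooth muscle genes averaged 7.16 in HSCR proximal 2 against 9.69 to 10.97. The 9 skeletal muscle genes averaged 6.30 in HSCR proximal 1 and 5.39 in HSCR distal 2, against 0.742 to 2.09 in the other 3. The part of these tissues in the differences below was not tested. In bulk RNA, fewer cells of a type and less RNA per cell cannot be told apart.

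Of 18109 genes that passed the filter on low counts, Uchl1 left out, 1049 were higher in all 3 neuron-containing libraries than in all 5 neuron-poor ones (5.79%), and 246 were lower (1.36%). These counts describe the chosen split and carry no test. Without HSCR distal 1, 1523 of 19295 genes were higher (7.89%) and 504 lower (2.61%). Without both libraries numbered 1, 2143 of 18591 were higher (11.5%) and 882 lower (4.74%). Fewer libraries leave more genes without overlap, so the shares are read only against genes from the same libraries. With any 1 of the 8 libraries left out, between 1113 and 1601 genes were higher and between 334 and 932 lower. The size of the higher group came from large differences: 310 of the 1049 genes differed by more than 3 on the log2 scale, and 867 by more than 1. Only 87 of the 246 lower genes differed by more than 1. The median difference of all genes was -0.06.

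Genes shared by all neurons were higher almost as a block. Of 29 pan-neuronal genes, 27 were higher without overlap, where 5.79% of all genes were. None was lower, and the list had a median log2 difference of 3.80. The count was 27 without HSCR distal 1 as well, with a median of 3.77. The mean of the list varied little among the 3 neuron-containing libraries, while single genes such as Nefl spread more. The mean log2(CPM + 0.5) of the list was 4.96 to 5.20 in them, 0.941 to 2.14 in the neuron-poor libraries and 1.97 to 6.76 in WT. The level left in the neuron-poor libraries differed between genes, and Dpysl3, which did not pass the WT test below (adjusted p = 0.42, edgeR), was at 51.2 to 227 CPM there against 347 to 463 CPM.

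Elavl4, an RNA-binding protein of nearly all enteric neurons, was at 49.9, 39.6 and 41.2 CPM in HSCR proximal 3, HSCR proximal 4 and HSCR distal 1. It was at 3.07 and 3.84 CPM in HSCR proximal 1 and 2, and at 0.438, 0.508 and 0.0913 CPM in HSCR distal 2, 3 and 4. The 2 proximal libraries of the neuron-poor set thus held more of it than the 3 distal ones. Stmn2, a growth cone protein that binds tubulin, was at 149, 149.7 and 162 CPM against 13.0, 12.6, 17.8, 5.73 and 10.1 CPM in the same order. The neuronal tubulin Tubb3, the target of the Tuj1 antibody, was at 164, 134 and 121 CPM against 6.72, 12.4, 11.4, 4.94 and 0.479 CPM. Its fitted log2 difference was 4.32 ± 0.75 (SE, 3 and 5 libraries). Prph, the filament protein of peripheral neurons, was at 126 ± 22.0 CPM (SD, n = 3) against 8.83 ± 5.47 CPM (SD, n = 5). Ncam1 and Dcx were the 2 pan-neuronal genes whose sets overlapped. For Ncam1 this was because HSCR proximal 1 had 52.9 CPM and HSCR proximal 4 had 48.4. NCAM1 is a cell adhesion molecule that nerve bundles and other cells also carry.

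**Figure D1:**
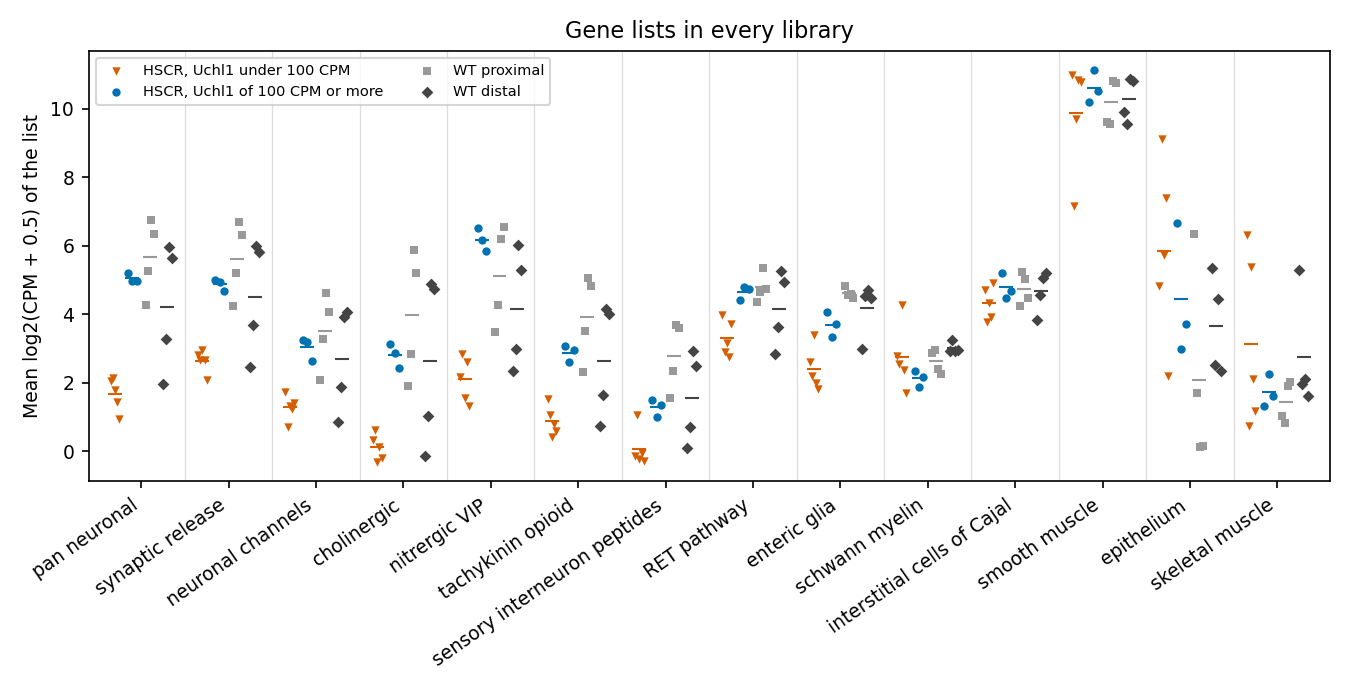
Mean log2(CPM + 0.5) of 14 gene lists in each library, with short bars for set means. Orange triangles are the 5 neuron-poor and blue circles the 3 neuron-containing HSCR libraries, and light grey squares and dark grey diamonds are WT proximal and WT distal libraries. The blue points of the pan-neuronal list sit between 4.96 and 5.20, above all orange points, while the smooth muscle and Cajal lists overlap.

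The 12 genes with the largest upward difference among those at 5 CPM or more were Vip, Vgf, Vwa5b1, Pdyn, Adcyap1, F2rl2, Tnr, Cartpt, Scg2, Gal, Slc7a14 and Tmem130. Vip, Adcyap1, Pdyn, Cartpt and Gal encode neuropeptide precursors, and Vgf and Scg2 encode granins stored in dense-core vesicles. Scg2 (chromosome 1, 79412386-79417837, minus strand) was at 202, 161 and 117 CPM in the 3 neuron-containing libraries and at 2.82, 5.63, 0.146, 2.26 and 0.502 CPM in HSCR proximal 1 and 2 and HSCR distal 2, 3 and 4. Vgf was at 80.9, 83.3 and 118 CPM in the first set and at 2.18 CPM or less in the second, with a log2 difference of 6.81 ± 0.91 (SE). The sets did not overlap for any of these 12, as the naming rule required.

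Cartpt and Scg2 were the only 2 of the 11 genes of these 12 with a RefSeq promoter window whose window held TGACGTCA, the consensus of the cyclic AMP response element. The motif is its own reverse complement, so 1 search covers both strands. The stretches below are shown because both genes belong to this group, and they are read in the direction of transcription from the minus strand (RefSeq windows, GRCm38.p6) with the motif in capitals. The Cartpt stretch is chr13:99900777-99900806, with the motif beginning 112 bases before the RefSeq gene start, and the Scg2 stretch is chr1:79440076-79440105, with it beginning 68 bases before.
Cartpt: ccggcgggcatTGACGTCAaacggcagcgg
Scg2: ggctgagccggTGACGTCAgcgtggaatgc
The motif was in 26 of 740 windows of the higher genes (3.51%), in 3 of 180 of the lower genes (1.67%), in 349 of 11703 of the overlapping genes (2.98%) and in 507 of all 27025 windows (1.88%). The share in the higher genes was thus close to that of the overlapping genes. Windows reach from 250 bases before to 50 bases after the gene start.

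Vesicle release and excitability genes followed the pan-neuronal genes less completely. Of 26 genes of the release machinery, 18 were higher without overlap, and of 31 measured neuronal channel and receptor genes, 19 were. Of all genes, 5.79% were higher. The median log2 differences of these lists were 2.08 and 2.23. Syp, a synaptic vesicle membrane protein, was at 35.3, 59.2 and 31.1 CPM against 1.10 to 5.63 CPM. Syt11, a vesicle protein of the synaptotagmin family, was at 74.0 to 98.4 CPM against 2.37 to 17.0. Htr3a, a subunit of the serotonin-gated channel, was at 48.5 and 44.9 CPM in the proximal libraries but at 9.30 CPM in HSCR distal 1, still above the 4.05 CPM of HSCR distal 2. Rims1, Cplx2 and Kcnd3 overlapped between the sets. Rims1 reached 329 and 341 CPM in HSCR distal 3 and 4, above all 3 neuron-containing libraries at 67.2 to 179 CPM.

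Inhibitory transmitter genes were the most raised transmitter group. Of 9 genes of nitrergic and VIP neurons, 6 were higher without overlap, beside 5.79% of all genes. The list median was 5.18 (5.41 without HSCR distal 1). Nos1, the neuronal nitric oxide synthase, was at 344, 334 and 116 CPM in the 3 neuron-containing libraries, and at 19.9, 9.51, 4.16, 2.68 and 1.07 CPM in the neuron-poor ones. The library labelled HSCR distal 1 had less than the other two, and still more than any neuron-poor library. Vip, which encodes a relaxing peptide, was at 1655, 859 and 377 CPM against 6.62, 17.9, 0.802, 12.9 and 0.343 CPM, the largest fitted difference in the group at 7.02 ± 1.07 (SE). Ass1, which renews the arginine that nitric oxide synthase uses, was at 449, 463 and 146 CPM against 3.06 to 29.3. Gal, which encodes galanin, was at 216, 211 and 56.3 CPM against 0 to 6.15. The 6 were Nos1, Vip, Ass1, Gal, Cartpt and Adcyap1, and Rgs4, Npy and Gch1 were the other 3 genes. Rgs4, a regulator of G protein signalling, overlapped, at 40.0 to 70.5 CPM against 11.5 to 89.1.

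Cartpt, which encodes the CART peptide, exceeded its WT levels. It was at 241, 238 and 370.3 CPM in the neuron-containing libraries and at 4.6, 5.57, 5.43, 2.51 and 0.662 CPM in the neuron-poor ones, a log2 difference of 6.28 ± 0.59 (SE). The highest WT library had 61.5 CPM. All 3 neuron-containing libraries therefore lay above all 8 WT libraries, the lowest of them by 3.88-fold. Pdyn, the precursor of dynorphins, was at 85.8, 22.0 and 28.5 CPM against at most 1.80 CPM in the neuron-poor set and at most 15.3 CPM in WT. Vip in HSCR proximal 3 and 4 was above its WT maximum of 499 CPM, and in HSCR distal 1 below it.

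Cholinergic genes were present at lower levels. Of 9 measured genes, 8 were higher without overlap, beside 5.79% of all genes, with a median of 3.40 (3.91 without HSCR distal 1). Chrna3, a nicotinic receptor subunit on most enteric neurons, was at 76.6, 87.4 and 40.2 CPM against 0.339 to 4.08. Slc5a7, which brings choline into the nerve ending, was at 7.81, 6.57 and 11.8 CPM against 0.574, 0.415, 2.81, 0.621 and 0.0457. Slc18a3, which loads acetylcholine into vesicles, was at 8.63, 4.94 and 9.80 CPM against 0 to 0.968. Chat, the enzyme that makes acetylcholine, missed the filter: it was at 0.851 and 0.459 CPM in HSCR proximal 3 and 4, at 0 in the library labelled HSCR distal 1 and in the 5 neuron-poor libraries, and at up to 15.6 CPM in WT. Slc18a3 lies inside the Chat gene on the same strand, so reads of either gene may be split or dropped, and both values are uncertain.

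Opioid, tachykinin and sensory peptide genes were mixed. Of 7 measured tachykinin and opioid genes 3 were higher without overlap (Penk, Pdyn and Tacr3). Of 12 sensory and interneuron genes 2 were, one of them Dbh, and of all genes 5.79% were. Penk, the enkephalin precursor, was at 90.5, 52.4 and 211 CPM against 41.2, 15.7, 14.9, 13.0 and 43.4 CPM. The sets were close at HSCR proximal 4 and HSCR distal 4. Tac1, the substance P precursor, was at 22.1, 2.68 and 25.6 CPM, and HSCR proximal 2 of the neuron-poor set had 7.99 CPM, so the sets overlapped. Sst was at 21.7, 10.7 and 2.46 CPM, and HSCR proximal 2 had 40.3 CPM, the highest of the 8. The same library led the neuron-poor set for Calb2 at 21.5 CPM. Sst is also made by endocrine cells of the epithelium, and epithelial genes were most abundant in that library. The part of epithelium in its Sst level was not tested. Ddc, an enzyme of amine synthesis that epithelial cells share, was highest in that library too, at 42.9 CPM.

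**Figure D2:**
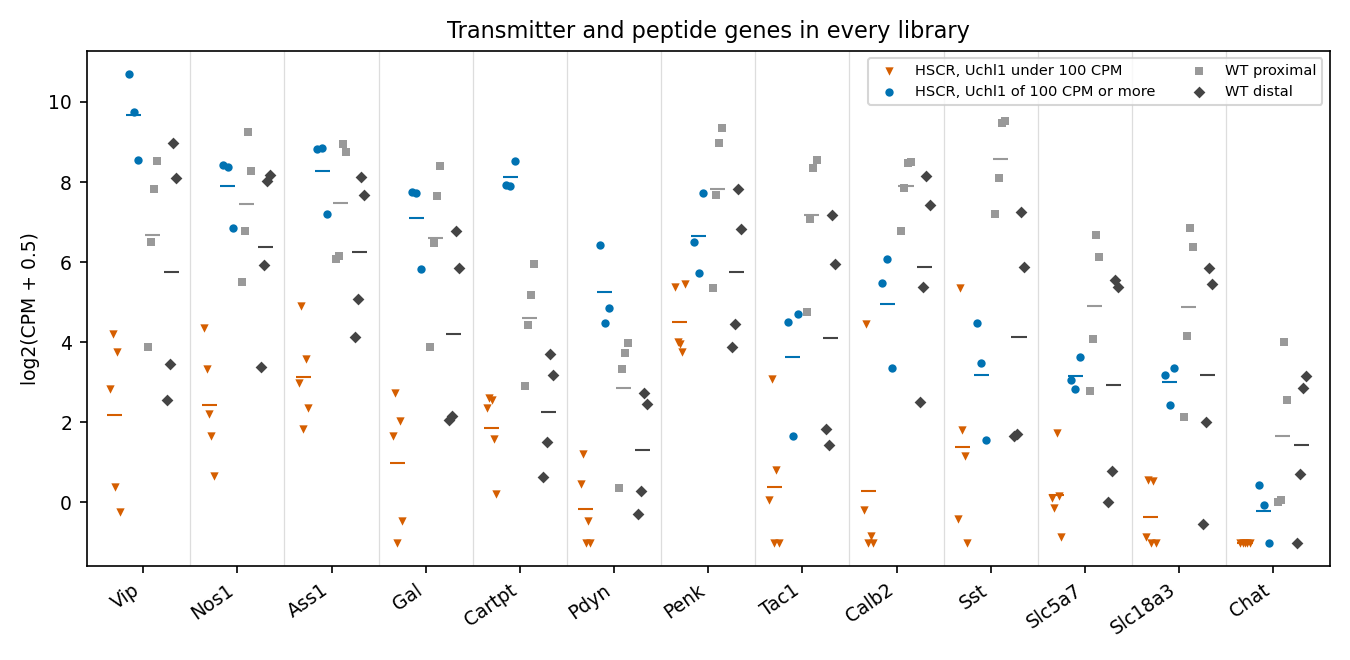
Level of 13 transmitter and peptide genes, as log2(CPM + 0.5), in each of the 16 libraries, with short bars for set means. Orange triangles are neuron-poor and blue circles neuron-containing HSCR libraries, and light grey squares and dark grey diamonds are WT proximal and distal. Blue points exceed all WT points for Cartpt and Pdyn, and Chat is at 0.851 CPM or less in every HSCR library.

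The receptor of the GDNF family followed the neurons and its ligands did not. Ret, the receptor kinase that enteric neurons and their precursors need, was at 165, 129.8 and 81.2 CPM against 12.3, 9.30, 5.51, 3.36 and 4.06 CPM. Its log2 difference was 4.21 ± 0.48 (SE). Gfra1, the coreceptor for GDNF, was at 54.5, 38.1 and 33.0 CPM against 1.72 to 10.7. These were the 2 of 7 genes of the pathway without overlap, beside 5.79% of all genes that were higher. The ligand Gdnf, made by muscle and glia, was at 30.2, 60.4 and 23.2 CPM against 53.8, 7.22, 8.72, 35.5 and 87.8 CPM, so the neuron-poor set held both the highest and the lowest values. Nrtn, a related ligand, was at 23.9 to 96.4 CPM against 29.1 to 71.1. Edn3, the ligand of EDNRB, was at 22.5, 11.8 and 27.1 CPM against 49.9, 3.04, 33.3, 14.0 and 28.5, with a log2 difference of -0.31 ± 0.72 (SE).

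Transcription factors of the lineage were less uniform. Of the 21 listed factors, 6 were higher without overlap, beside 5.79% of all genes, with a list median of 0.66. Several of the most abundant ones overlapped. Meis2, a homeobox cofactor, was at 145 to 172 CPM against 18.5 to 174, and Pbx3 at 68.7 to 105 against 17.8 to 143. Etv1, an ETS factor also known from interstitial cells of Cajal, was at 98.6 to 155 CPM against 18.7 to 93.8 and did not overlap.

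Glial genes were higher but overlapped more than neuronal genes, and myelin genes were not higher. Of 19 enteric glia genes, 7 were higher without overlap, where 5.79% of all genes were, with a median of 1.26 (1.33 without HSCR distal 1). Of 13 measured Schwann and myelin genes none was without overlap in either direction. Their median was -2.24, but -0.65 without HSCR distal 2, -0.64 without HSCR proximal 1 and -0.82 without HSCR proximal 2. Gfap, the glial filament protein, was at 63.8, 29.4 and 27.2 CPM against 2.80, 6.81, 0.438, 0.536 and 0.845 CPM. Ngfr, the low affinity neurotrophin receptor, was at 114, 62.6 and 44.2 CPM against 0.754 to 12.4. Both genes separated the sets in every library.

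Sox10, the factor that neural crest, enteric glia and Schwann cells share, was at 50.8, 31.8 and 64.3 CPM against 17.7, 10.3, 42.6, 5.45 and 5.02 CPM. HSCR distal 2 alone made these sets overlap. The same library was the highest neuron-poor library for S100b, a calcium-binding protein of glia, at 13.8 CPM against 1.46 to 5.98. The Schwann and myelin list was at its highest there as well, with a mean log2(CPM + 0.5) of 4.28 against 1.71 to 2.79 in the other neuron-poor libraries and 1.88 to 2.33 in the neuron-containing ones. Mbp, a myelin protein, was at 270.1 CPM in HSCR distal 2, at 10.9 to 39.3 in the other neuron-poor libraries and at 6.78 to 14.0 in the neuron-containing ones. All 3 of the latter lay below the lowest WT library, at 32.2 CPM. HSCR distal 2 was also 1 of the 2 neuron-poor libraries with the most skeletal muscle transcripts, and the part of that tissue in the myelin levels was not tested.

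**Figure D3:**
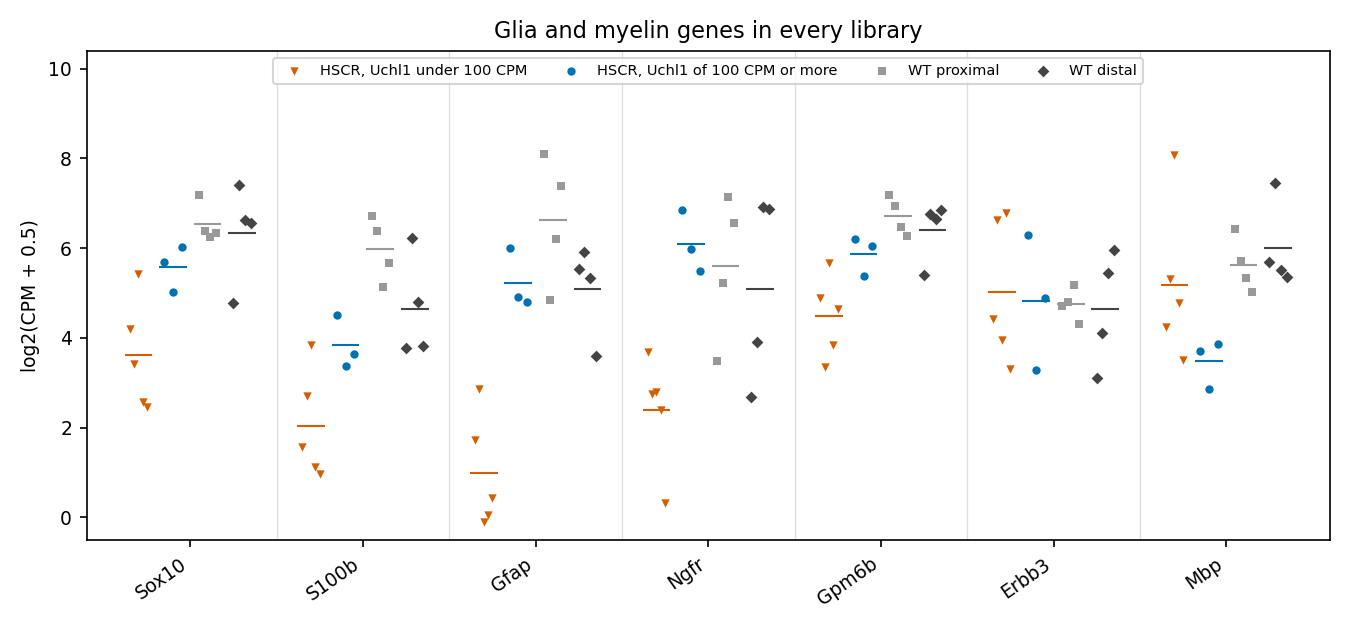
Level of 7 glia and myelin genes, as log2(CPM + 0.5), in each of the 16 libraries, with short bars for set means. Orange triangles are neuron-poor and blue circles neuron-containing HSCR libraries, and light grey squares and dark grey diamonds are WT proximal and distal. Gfap and Ngfr separate orange from blue, while for Mbp the highest point is a single neuron-poor library at 270.1 CPM.

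The cells that the plexus acts on mostly overlapped between the sets. Of 7 Cajal cell genes 1 was higher without overlap, of 6 genes of PDGFRA-positive interstitial cells none, of 17 smooth muscle genes none and of 15 muscle receptors and effectors 1, with list medians of -0.11, 0.35, 0.30 and -0.18. These counts are near the 5.79% of all genes that were higher. Kit, the receptor that marks Cajal cells, was at 169.5, 97.6 and 129 CPM against 160.5, 23.9, 23.8, 68.8 and 405 CPM. Its highest level was thus in HSCR distal 4, the library with the least Uchl1. Gucy1b1, a subunit of the nitric oxide receptor, was at 148, 129 and 102 CPM against 25.7 to 121.

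Matrix genes were raised in part. Of 19 fibroblast and matrix genes 4 were higher without overlap, beside 5.79% of all genes, with a median of 0.87. Sparc, a collagen-binding matrix protein, was at 6189, 6849.7 and 4679 CPM against 4107, 949, 2539, 3599.6 and 2356 CPM. Col1a1 overlapped because HSCR proximal 1 had 7310 CPM, the highest of the 8, where the neuron-containing libraries had 3938 to 6367. All 3 of these exceeded the WT maximum of 3102 CPM. Of the 1049 higher genes, 68 were above all 8 WT libraries in each of the 3 neuron-containing libraries, and the 5 most abundant were Col6a2, Lgals1, Niban1, Tgfbi and Mfap4. These 5 were picked by their level after the values were seen. All 1049 were chosen for high levels in these 3 libraries, which favours levels above WT. The share of all genes above WT is not given here, so the 68 are a description only. At the other end, 384 of the 1049 stayed under the WT median in all 3 libraries.

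Red blood cell genes were the one other list with a shift in most members when HSCR distal 1 was left out. Its 5 genes are 4 globins and the heme enzyme Alas2. In the 8 libraries 1 of them (Alas2) was lower without overlap, beside 1.36% of all genes. In the 7 libraries all 5 were, beside 2.61% of all genes. The list medians were -2.20 and -2.88. Hbb-bs was at 17.2, 19.8 and 47.2 CPM in the neuron-containing set against 53.0, 407, 125, 35.3 and 80.5. The globin genes are close copies of each other, and the split of reads between them is uncertain. Epithelial (median -2.0), skeletal muscle (-4.07), adipocyte (-2.66) and pancreatic (-2.34) lists had negative medians, and none of their genes was separated in the 8 libraries. Macrophage (0.34), endothelial (0.61), mesothelial (1.07), B and plasma cell (-0.95), T cell (-0.65), immediate early (-1.01), cell cycle (0.51) and niche ligand (0.37) lists had no member lower without overlap in the 8 libraries, and of these only 1 niche ligand gene, Wnt11, was higher. Single libraries moved these medians. With 1 library left out, the epithelial median ran from -4.46 to -0.81, the skeletal muscle one from -4.67 to -1.25, the adipocyte one from -6.19 to -1.88 and the pancreatic one from -4.40 to -0.56. The extremes came without HSCR proximal 3 and 2 for epithelium, HSCR proximal 4 and 1 for skeletal muscle, HSCR proximal 4 and 2 for adipocytes and HSCR distal 1 and 3 for pancreas. With the library series as a covariate the skeletal muscle median was -0.18, and the B and plasma cell and T cell medians turned to 0.22 and 0.12. The cell cycle median changed to -1.09 without HSCR distal 1, the library with the most Mki67 at 242 CPM.

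The genes that were lower in the neuron-containing set were led by the end of the HoxD cluster. Hoxd13 (chromosome 2, 74498654-74501943) was at 0.662, 1.17 and 0.615 CPM in HSCR proximal 3, HSCR proximal 4 and HSCR distal 1. It was at 125 and 2.35 CPM in HSCR proximal 1 and 2 and at 113, 219 and 14.0 CPM in HSCR distal 2, 3 and 4. The sets did not overlap, but HSCR proximal 2 was near the neuron-containing libraries and HSCR distal 4 lay between. The log2 difference was -6.79 ± 1.09 (SE), and -6.62 without HSCR distal 1. Evx2, a homeobox gene next to Hoxd13, had no count in the 3 neuron-containing libraries and 18.2, 0.104, 9.08, 22.8 and 1.58 CPM in the neuron-poor ones. The neuron-poor mean was at least 126-fold higher than the level of 3 counts per library. HSCR proximal 2, at 0.104 CPM, was near the floor of counting, so the lack of overlap there rests on few reads.

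The more anterior genes of the same cluster went the other way. Hoxd8 was at 53.1, 76.6 and 74.3 CPM against 8.69, 32.1, 11, 4.88 and 50 CPM. Hoxd10 was at 57.6, 84.2 and 81.3 CPM against 6.02, 13.9, 6.71, 12.1 and 43.9 CPM. Hoxd11 was at 31.6, 14.7 and 26.7 CPM against 7.29 to 13.7, and Hoxd9 overlapped, since HSCR distal 4 had 65.1 CPM. In WT, Hoxd10 ran from 11.8 to 32.0 CPM in proximal and from 9.56 to 14.8 in distal libraries, so all 3 neuron-containing libraries lay above all WT libraries. Hoxd12 and Hoxb13 overlapped between the sets, and Hoxb13 was at 81.5 and 158 CPM in HSCR distal 2 and 3 and at 0.0457 CPM in HSCR distal 4. Of 14 posterior Hox genes 4 were higher and 1 was lower without overlap, beside 5.79% and 1.36% of all genes. Hoxd13 in HSCR proximal 2 and HSCR distal 4 lay inside the WT proximal range, so 2 of the 5 neuron-poor libraries were not distal by this gene, and Hoxd10 overlapped between the WT segments. The part of position along the colon in the differences of neuronal genes was not tested.

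**Figure D4:**
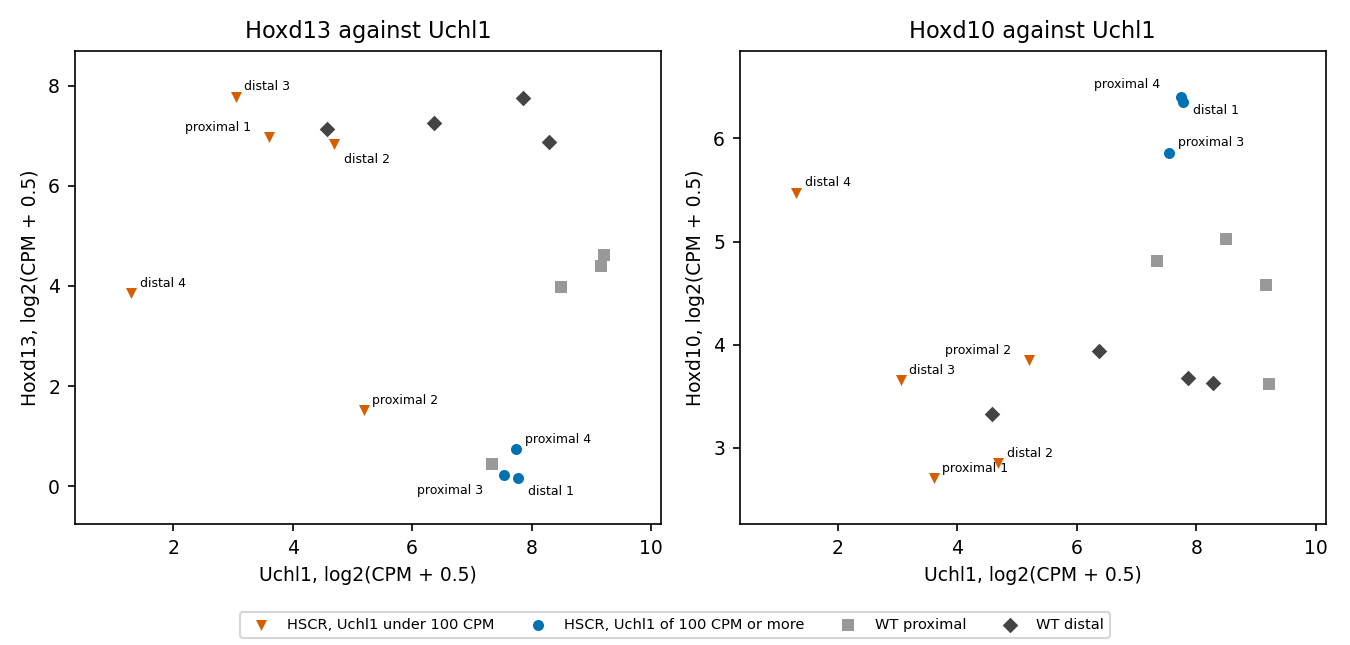
Hoxd13 (left) and Hoxd10 (right) against Uchl1, all as log2(CPM + 0.5), with 1 point per library and the 8 HSCR libraries named. The 3 neuron-containing libraries (blue circles) lie at the bottom right for Hoxd13, near WT proximal 1, and at the top right for Hoxd10, above all WT libraries, while HSCR proximal 1 (125 CPM of Hoxd13) lies among the distal libraries.

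The other genes of the 12 with the largest downward difference were Fxyd4, Ttn, Vsig1, Nxpe2, Nrap, Sh3rf2, Foxq1, Pdk4, Clic5 and Arntl. Fxyd4, a regulator of the sodium pump, had no count in the neuron-containing set and 0.0250, 3.60, 9.66, 29.9 and 0.137 CPM in the neuron-poor one. The values of 0.0250 and 0.137 CPM are near the floor of counting, so its lack of overlap rests on few reads. Ttn and Nrap encode sarcomere proteins of striated muscle, and Ttn reached 209.6 CPM in HSCR proximal 1 and 25.4 in HSCR distal 2, the libraries with skeletal muscle transcripts, against 0.617 to 1.11 in the other 3. Pdk4, a kinase that restrains the use of glucose, was at 13.8, 33.9 and 11.8 CPM against 45.6, 38.3, 50.6, 172 and 175 CPM. Arntl, a core gene of the circadian clock, was at 5.92, 2.26 and 6.37 CPM against 7.27 to 41.7.

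The size of the differences was also taken within each series and segment label. The 5 genes given do not overlap between the sets, so their sign was fixed and only the size is of use. In the second series, with 2 libraries against 2, the difference of mean log2(CPM + 0.5) was 8.47 for Vip, 7.0 for Cartpt, 5.13 for Ret, 5.22 for Gfap and -5.34 for Hoxd13. In the first series, HSCR distal 1 against 3 libraries, it was 6.09, 6.03, 3.17, 3.29 and -4.95. Among the libraries labelled proximal, with 2 against 2, it was 6.70, 5.43, 3.72, 3.16 and -3.77 for the same genes. Among those labelled distal, HSCR distal 1 against 3, it was 7.27, 7.08, 4.11, 4.66 and -6.0.

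Whether the same genes go with neuronal RNA outside these libraries was tested in the 8 WT libraries, which the split did not use. WT libraries varied as well, from 23.4 CPM of Uchl1 in WT distal 1 to 595 CPM in WT proximal 4. A slope on log2 Uchl1 was fitted with the segment as a term, leaving 5 residual degrees of freedom. Of 16620 genes, 1168 rose with Uchl1 (7.03%) and 308 fell (1.85%) at an adjusted p under 0.05 (edgeR quasi-likelihood test, Benjamini-Hochberg adjustment). Without an adjustment, 2786 rose and 1380 fell at p under 0.05. Nothing in the labels says that the WT libraries are separate mice, so the test covers the spread between libraries.

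Genes higher in the neuron-containing HSCR libraries were often among those that rose in WT. Of the 1049, 1011 were tested, and 422 rose (41.7%) and 3 fell (0.297%), where 7.03% of all genes rose. Their median slope was 0.69 against 0.04 over all genes. Of the genes without overlap once HSCR distal 1 was left out, 36.3% of 1421 rose, and without both libraries numbered 1, 30.0% of 2047. Of 222 tested genes that were lower in the neuron-containing set, none rose and 3 fell (1.35%), where 7.03% of all genes rose and 1.85% fell. Their median slope was -0.11, and 59 of the 222 slopes were above 0.

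The 10 genes with the smallest p among those that also lacked overlap in the HSCR libraries were Syp, Vstm2l, Serpini1, Syt4, Pcsk2, Rtn1, Crmp1, Tubb3, Slc18a3 and Slc7a14. The slope of Syp was 1.73 ± 0.10 (SE) per log2 unit of Uchl1, with an adjusted p of 0.00056 (edgeR), and its log2 difference in the HSCR libraries was 3.68 ± 0.49. Pcsk2, a protease that cuts peptide precursors, had a slope of 2.11 ± 0.14, also with an adjusted p of 0.00056 (edgeR). Over the neuron lists, 23 of 29 pan-neuronal genes rose in WT, as did 9 of 10 cholinergic, 6 of 9 nitrergic and VIP, 5 of 7 tachykinin and opioid, 7 of 14 sensory and interneuron, 20 of 26 release and 20 of 30 channel genes. Each share was above the 7.03% of all genes, and none of the genes in these lists fell.

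Some genes with higher levels in the neuron-containing HSCR libraries did not pass the test in WT. Gfap had a slope of -0.36 ± 0.28 (adjusted p = 0.468, edgeR) and Sox10, whose HSCR sets overlapped, of 0.06 ± 0.21 (adjusted p = 0.922, edgeR). Among 19 glia genes 2 rose in WT, beside 7.03% of all genes. One of these 2 was Ngfr, with a slope of 1.38 ± 0.15 (adjusted p = 0.00313, edgeR). Hoxd13 and Hoxd10 had slopes of 0.28 ± 0.28 and -0.06 ± 0.15 (adjusted p of 0.621 and 0.862, edgeR). Of 14 posterior Hox genes none rose or fell, beside 7.03% and 1.85% of all genes. Vgf had a slope of 1.30 ± 0.44 with an adjusted p of 0.0958 (edgeR). Of 10 macrophage genes 9 fell in WT, where 1.85% of all genes fell. Among the 9 were the complement genes C1qa, at -0.85 ± 0.13 (adjusted p = 0.00547, edgeR), and C1qb. In the HSCR libraries the 10 macrophage genes overlapped.

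The WT result depended on the library series and on the use of replicate numbers as a block. With that block, 1 gene rose and 0 fell at an adjusted p under 0.05 (edgeR). The 1 rising gene was not among the higher HSCR genes. Uchl1 was higher in the second series within both WT segments, and with the series as a term no gene had an adjusted p under 0.05, the smallest being 0.0748 (edgeR). At an unadjusted p under 0.05, 8.86% of all genes rose in that fit, and 323 of the 1011 higher genes did (31.9%). Leaving out WT distal 1, the library with the least Uchl1, left 371 rising and 50 falling genes, of which 218 were among the higher genes of the HSCR libraries. Without WT proximal 1, WT proximal 3, WT distal 3 or WT distal 4, between 536 and 609 genes rose, and without WT proximal 4, 778.

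**Figure D5:**
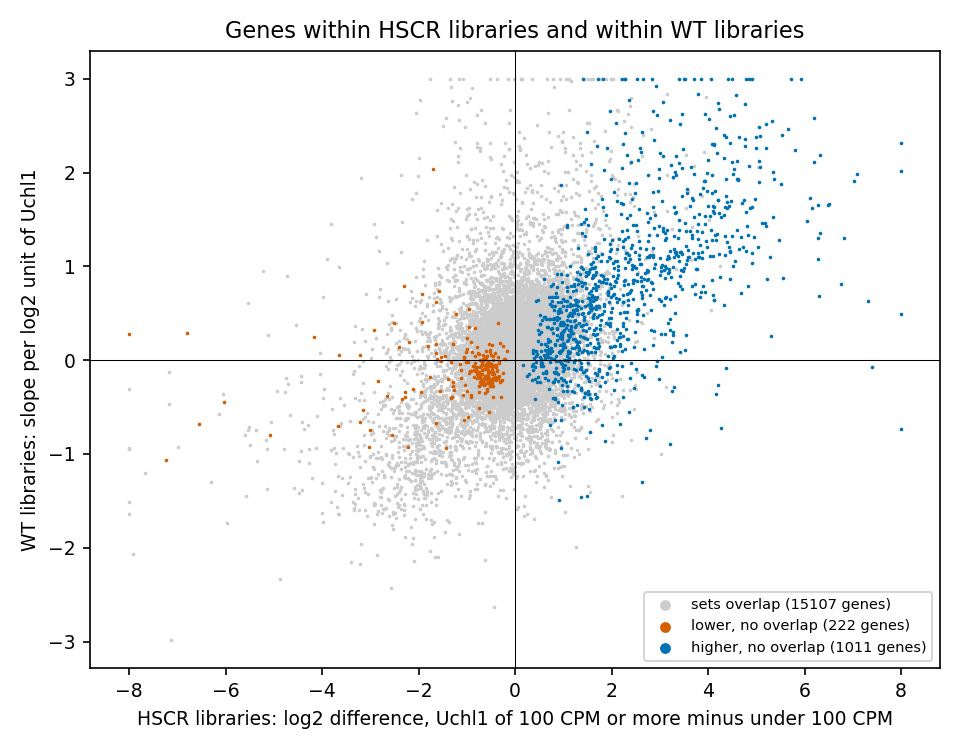
Each point is 1 gene measured in both fits, with the log2 difference between the neuron-containing and neuron-poor HSCR libraries on the x axis and the slope per log2 unit of Uchl1 in WT on the y axis. Blue points are the 1011 higher and orange points the 222 lower genes without overlap, grey points are genes whose sets overlap, and values beyond 8 or 3 are drawn at the edge. Blue points lie mostly above a slope of 0, and orange points near it.

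Against the neuronal RNA in each library, a few peptide genes of the neuron-containing HSCR libraries lay outside the WT range, and most, among them Gal, Penk, Tac1 and Sst, did not. For each library the level of a gene was taken relative to the mean of the pan-neuronal list on the log2(CPM + 0.5) scale, which is a description with no test. The mean of the nitrergic and VIP list was 0.90 to 1.30 above the pan-neuronal mean in the 3 neuron-containing libraries. In WT it was between -0.99 and 0.37, without overlap. Of the genes in this list only Vip and Cartpt lay above all WT libraries by this measure. Nos1, Ass1, Gal, Adcyap1, Npy, Gch1 and Rgs4 overlapped with WT, so the shift is not one of the whole list. The cholinergic list was at -2.53 to -2.08 against -2.42 to -0.88 in WT, at the low end. The tachykinin and opioid list was at -2.36 to -2.0, just below the WT minimum of -1.97. The sensory and interneuron list was at -3.96 to -3.60, below the WT minimum of -3.14. Of the first list only Oprk1 lay below all WT libraries, and Pdyn lay above them. Of the second only Calcb, Nxph2 and Slc17a6 lay below, the last 2 at or near the floor of counting in the neuron-containing libraries. Neither shift is thus one of the whole list.

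Of 182 listed genes of neurons, RET signalling, glia and the study's text, 3 lay above and 10 below all WT libraries by this measure. The 3 were Vip (3.61 to 5.49 against at most 3.02), Cartpt (2.72 to 3.58 against at most -0.39) and Pdyn (-0.47 to 1.23 against at most -1.94). Among the 10 below were Slc10a4, Oprk1, Calcb, Nxph2, Slc17a6, Snap25, Rims2, Gria4 and Col9a2. Slc10a4, a vesicle carrier of cholinergic neurons, was at -4.26 to -3.05 against at least -2.19 in WT. Oprk1, the kappa opioid receptor, was at -4.56 to -4.03 against at least -2.58. Calcb, which encodes a calcitonin gene-related peptide of intrinsic sensory neurons, was at -5.19 to -4.42 against at least -3.0. Snap25, a protein of the release complex, was at 0.38 to 0.93 against at least 1.25. The WT libraries include ones with far less neuronal RNA than the neuron-containing set, and low counts there set how low these genes could be read.

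The genes that the study names behaved unlike one another. Of its 10, 8 passed the filter. Penk, Slc5a7 and Col9a2, 3 of the 8, were higher without overlap, beside 5.79% of all genes. Col9a2, a collagen chain, was at 13.4, 11.3 and 22.2 CPM against 11.5, 6.98, 0.948, 1.02 and 3.27 CPM. On this 16-library scale HSCR proximal 4 lay below HSCR proximal 1, and with factors from the 8 HSCR libraries alone it lay above. Thbs4, a matrix protein, was at 61.9, 26.1 and 44.0 CPM against 46.0, 17.5, 28, 119.8 and 17.2, and both sets held libraries above the WT maximum of 23.0 CPM. Sdc1 and Vcam1 overlapped, with log2 differences of -0.18 ± 0.57 and 0.21 ± 0.43 (SE). Slc17a6 and Mmp7 missed the filter, with at most 0.227 CPM of Slc17a6 in any HSCR library. These genes were chosen by the study on these samples and are no independent evidence.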

How the data were processed

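The deposited count table held whole-number gene counts that the authors made with HISAT2 2.2.1 (mm39) and featureCounts 2.0.6, per the labels, against a GENCODE model. The deposited FPKM values were not used for a test. Columns of group means, log2 fold changes and p-values from the authors' 4 comparisons were not used. Whether counting used strand is not given in the sources used here. The table held 56748 genes, 23907 of them without a count, and no 2 libraries were identical. All members and gene lists were chosen with earlier results of these data known.

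Counts were filtered with filterByExpr and scaled by TMM (edgeR 4.0.16, R 4.3.3). In the 8 HSCR libraries, log2 differences were fitted for description, without p-values. A gene lacked overlap where its lowest CPM in one set exceeded its highest in the other. In the 8 WT libraries, the slope on log2 Uchl1 with a segment term was tested by edgeR's quasi-likelihood test, two-sided, over all genes, Uchl1 left out. The coefficient of variation between libraries was 0.735 in HSCR and 0.594 in WT fits. Scripts were tested on simulated data.

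Named genes were Ednrb and the 10 genes of the study's text, the 4 genes of each list (6 for neuronal and glial lists) with the highest mean in HSCR, the 12 genes with the largest difference each way among those without overlap in both the 8 and 7 libraries, at 5 CPM or more in the higher set, with predicted genes left out, and the 10 smallest p in WT among genes without overlap. Elavl4, Chat, Gfap, S100b, Edn3, Hoxb13, Hoxd9, Hoxd11, Hoxd12, Dcx, Wnt11, Alas2, Npy, Gch1 and the genes outside the WT range of relative levels belong to the lists but were named after their values were seen. Some genes that the rule names are not reported here. List levels used log2(CPM + 0.5). A fold against a set without counts used 3 counts per library. Promoter windows came from RefSeq (GRCm38.p6), matched by symbol.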

Additional observations from a re-analysis of the deposited data

Results flagged for a closer look

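Lists were screened for a library that stood apart from the others of its set, by Dixon's ratio of gap to range at the 95% limit, in the 5 neuron-poor and in the 8 WT libraries. Of 64 list and set pairs 6 were flagged, and chance alone flags about 1 in 20. The values are mean log2(CPM + 0.5) of the list.

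Among the neuron-poor libraries, HSCR proximal 2 was high for sensory and interneuron genes, at 1.04 against -0.30 to -0.05 in the other 4. HSCR distal 3 was high for pancreatic acinar genes, at 2.17 against -0.39 to -0.04. Among the WT libraries, WT distal 2 was high for the same pancreatic genes, at 6.17 against -0.48 to -0.03, and low for fibroblast and matrix genes, at 7.82 against 8.52 to 9.10. WT distal 1 was low for enteric glia genes, at 2.98 against 4.46 to 4.81, and high for skeletal muscle genes, at 5.28 against 0.81 to 2.11. WT distal 1 is also the WT library with the least Uchl1, and the part of skeletal muscle in the WT slopes was not tested.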

How the results depend on the processing

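The number of genes without overlap was within 1.5 times its reported value with DESeq2 size factors, without a normalization factor, without a filter and without mitochondrial genes. A covariate cannot change these counts, which come from CPM ranges. With 1 library left out it ran from 1113 to 1601 (higher) and 334 to 932 (lower), the higher count moving past 1.5 times only without HSCR proximal 1. The lower count was 504 without HSCR distal 1, 420 and 421 without HSCR distal 2 and 4, and 567, 685, 932 and 560 without HSCR proximal 1 to 4, and the construction with fewer libraries raises such counts. Without both libraries numbered 1, chosen after seeing the data, it was 2143 and 882. In WT, DESeq2 gave 2019 rising and 908 falling genes, the slope on the pan-neuronal list 488 falling, and the library series as a term 0 and 0, none of them among the higher HSCR genes (0). With 1 WT library left out, rising genes ran from 371 to 1723, falling from 50 to 559, and rising genes among the higher HSCR genes from 218 to 503. Replicate numbers were not taken to pair the WT libraries. The correlation of same-numbered deviations was 0.456, 0.09, 0.334 and 0.213, positive throughout but weak for number 2. The labels name no shared mouse. Library names of replicates 1 and 2 share a number between proximal and distal colon, and also between WT and HSCR. That number therefore cannot name 1 mouse. The replicate block left 1 rising and 0 falling genes, 0 of them among the higher HSCR genes, and turned the slope of Igkc (0.29), not past the threshold, and not every library correlated best with its own number. The causes of these changes were not tested. Of 60 named genes called in WT, 60 kept their call with DESeq2, 0 with the series term and 0 with the replicate block.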
